A study of Mus musculus with 39 samples.

Results

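Genes that mark the progenitors and fibroblasts of adipose tissue were followed in mouse subcutaneous fat over 5 diets and 18 weeks. The members are 8 genes taken by name from the array annotation (Pdgfra, Pdgfrb, Ly6a, Dpp4, Pi16, Cd34, Thy1 and Cd55), out of 29411 gene names on the array. They were read by 12 probes. Pdgfrb, Ly6a, Pi16, Cd34 and Cd55 had 1 probe each, Pdgfra and Thy1 had 2, and Dpp4 had 3. Each gene is described by its brightest probe, which was well above background on all 39 arrays for each of the 8 genes. Levels are log2 values relative to the 75th percentile of the array, so that a level of 0 is the signal below which 75% of the spots of that array lay, and a difference of 1 is a doubling. Levels of different genes come from different probes and are not compared with each other.

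New adipocytes arise from fibroblast-like cells in the connective tissue and around the vessels of the fat depot. Most of these cells carry the receptor PDGFRα together with CD34, THY1 and Ly6a (Sca-1). Cells that carry DPP4, PI16 and CD55 lie in the fibrous sheets of the depot and are known as early, multipotent progenitors, while committed preadipocytes lie nearer to the adipocytes. PDGFRβ marks the mural cells of small vessels as well as part of the preadipocytes. Several of the names are shared with other cells, since THY1 is a classical surface protein of mouse T cells, CD34 is found on endothelium and Ly6a is found on endothelium and lymphocytes.

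The samples were C57BL/6J mice that entered the experiment after weaning, at 3 to 4 weeks of age, in groups of 30 animals. Low-fat control mice (LFC, 10 arrays) received a normal diet with 10% of calories from fat, and high-fat mice (HFC, 11 arrays) received a diet with more sucrose and 60% of calories from fat. In HF5, HF20 and HF75 (6 arrays each) that high-fat diet was given with 5, 20 or 75 µg of KAL-1, an aqueous botanical formulation. LFC and HFC shared 10 time points. The early ones were Day 6, Day 10, Day 14 and Week 0 (4 in all), and the late ones were Weeks 3, 6, 9, 12, 15 and 18 (6 in all). The KAL-1 groups were read at the late time points only, and HFC had 1 more array at Day 1. The labels name no transgene or deletion and do not give the sex. By the methods, weeks were counted from Day 14, so Day 14 and Week 0 may be the same age. The design text speaks of 3 biological replicates, and 1 array per diet and time point was analysed here, for which the labels do not say whether it held RNA of 1 mouse or of several. The spread behind each diet difference is therefore the spread of that difference over time points, and nothing replicates a difference within a time point.

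All 14 adipocyte genes that were read (among them Adipoq, Fabp4 and Plin1) were well above background on all 39 arrays. Adipocytes of every fat depot express them, so they check the tissue but not the depot. Between arrays the 75th percentile of signal ranged from 107.9 to 1285 units, and the share of spots well above background ranged from 49.32% to 87.77%. HF20 Week 15 had the highest share, and it had 4936 outlier spots where the median of all arrays was 42. RNA of other tissues varied widely. The mean level of 8 skeletal muscle genes ranged from -4.75 to 7.57 with its highest value on HF75 Week 3, that of 10 T cell genes from -5.16 to 1.33 with its highest value on LFC Week 3, and that of 5 mesothelium genes from -7.9 to 0.99 with its highest value on HFC Day 14. Mesothelium covers visceral fat and is not part of the subcutaneous depot. Besides HFC Day 14, the mesothelium mean was high on LFC Week 6 (0.03), HF75 Week 6 (-0.71), HF5 Week 6 (-0.96), HFC Week 9 (-1.55) and HFC Week 6 (-2.69), where the median of all arrays was -6.38 and the highest of the other arrays was -4.28. On these 6 arrays the mesothelium genes go against a purely subcutaneous sample, and the diet differences of the members are given below with and without them. In the deposited table of ratios the Week 12 columns of HF5 and HF20 matched each other's array files (r of 1 across genes against 0.688 and 0.69 with their own), so that these 2 arrays may carry exchanged labels. Values below follow the labels of the array files. In whole tissue, fewer cells of a type and less RNA per cell cannot be told apart.

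The 3 genes of the early progenitor, Dpp4, Pi16 and Cd55, varied together from array to array. To show the DNA in front of these genes, the 250 bases upstream of the annotated start are printed 5′ to 3′ on the strand of the gene, from RefSeq on GRCm38.p6 (Dpp4 chr2:62412232-62412481, minus strand, Pi16 chr17:29318632-29318881, plus strand, and Cd55 chr1:130462745-130462994, minus strand), with matches to 4 promoter motifs in capitals.
Dpp4: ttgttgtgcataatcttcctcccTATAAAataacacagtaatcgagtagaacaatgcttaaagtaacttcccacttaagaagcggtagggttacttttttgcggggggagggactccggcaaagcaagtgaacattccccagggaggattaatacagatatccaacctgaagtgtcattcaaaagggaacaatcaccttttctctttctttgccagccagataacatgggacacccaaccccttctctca
Pi16: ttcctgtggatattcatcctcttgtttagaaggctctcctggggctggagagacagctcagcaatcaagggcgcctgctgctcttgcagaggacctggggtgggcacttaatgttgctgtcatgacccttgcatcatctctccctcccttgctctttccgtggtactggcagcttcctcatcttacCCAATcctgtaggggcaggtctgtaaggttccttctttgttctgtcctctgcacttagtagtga
Cd55: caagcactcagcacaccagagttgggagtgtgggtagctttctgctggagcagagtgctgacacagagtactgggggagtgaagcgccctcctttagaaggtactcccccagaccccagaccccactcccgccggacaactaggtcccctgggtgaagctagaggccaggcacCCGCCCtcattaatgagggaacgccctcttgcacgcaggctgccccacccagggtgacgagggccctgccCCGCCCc
The motifs were the TATA box (TATAAA), the CCAAT box (CCAAT), the GC box (GGGCGG) and the AP-1 site (TGANTCA), searched on both strands with no overlap between them. Each window held a different motif. Dpp4 had TATAAA starting 227 bases before its start, Pi16 had CCAAT 64 bases before, and Cd55 had the reverse complement of GGGCGG 77 and 7 bases before. Among 32851 promoter windows of the same length, 12.4% held TATAAA, 33.8% held CCAAT, 32.7% held GGGCGG and 6.75% held TGANTCA. The C and G content was 43.6% for Dpp4, 52.4% for Pi16 and 64% for Cd55.

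Pi16, a secreted-type peptidase inhibitor, had the widest range of the 8 genes. It ran from -2.15 on HFC Week 6 to 5.01 on HF5 Week 18, a span of 143-fold, and its standard deviation over 39 arrays (1.66) was larger than that of 94.3% of the 17207 genes that were well above background on at least 30 arrays. By diet, the lowest, median and highest Pi16 levels were -0.06, 1.74 and 4.36 in LFC, -2.15, 1.83 and 3.9 in HFC, -0.18, 2.63 and 5.01 in HF5, -0.57, 2.67 and 4.35 in HF20 and 0.12, 1.46 and 4.04 in HF75. The 5 diets overlapped over most of this range. Dpp4, the dipeptidyl peptidase also called CD26, spanned 68.1-fold, from -4.41 on HF20 Week 12 to 1.68 on HFC Week 18. Its lowest, median and highest levels were -1.52, -0.75 and 0.74 in LFC, -3.05, -0.33 and 1.68 in HFC, -2.42, -0.51 and 1.46 in HF5, -4.41, -0.15 and 1.18 in HF20 and -2.52, -1.28 and 0.48 in HF75. Cd55, which shields cells from complement, spanned 9.58-fold. It was lowest on HFC Day 1 at -1.49 and highest on LFC Week 3 at 1.77. The lowest, median and highest Cd55 levels were -1.42, -0.24 and 1.77 in LFC, -1.49, 0.29 and 0.96 in HFC, -0.73, -0.08 and 1 in HF5, -1.24, -0.14 and 0.45 in HF20 and -0.73, -0.31 and 0.41 in HF75. HFC Day 1, which had no LFC array beside it, lay below the whole LFC range for Dpp4 (-1.83), Pi16 (-0.11), Cd55, Ly6a (1.33), Cd34 (4.33) and Thy1 (1.79) but not for Pdgfrb (2.09). On that array the skeletal muscle mean was 6.22 and the T cell mean -5, and their part in these levels was not tested.

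**Figure D1:**
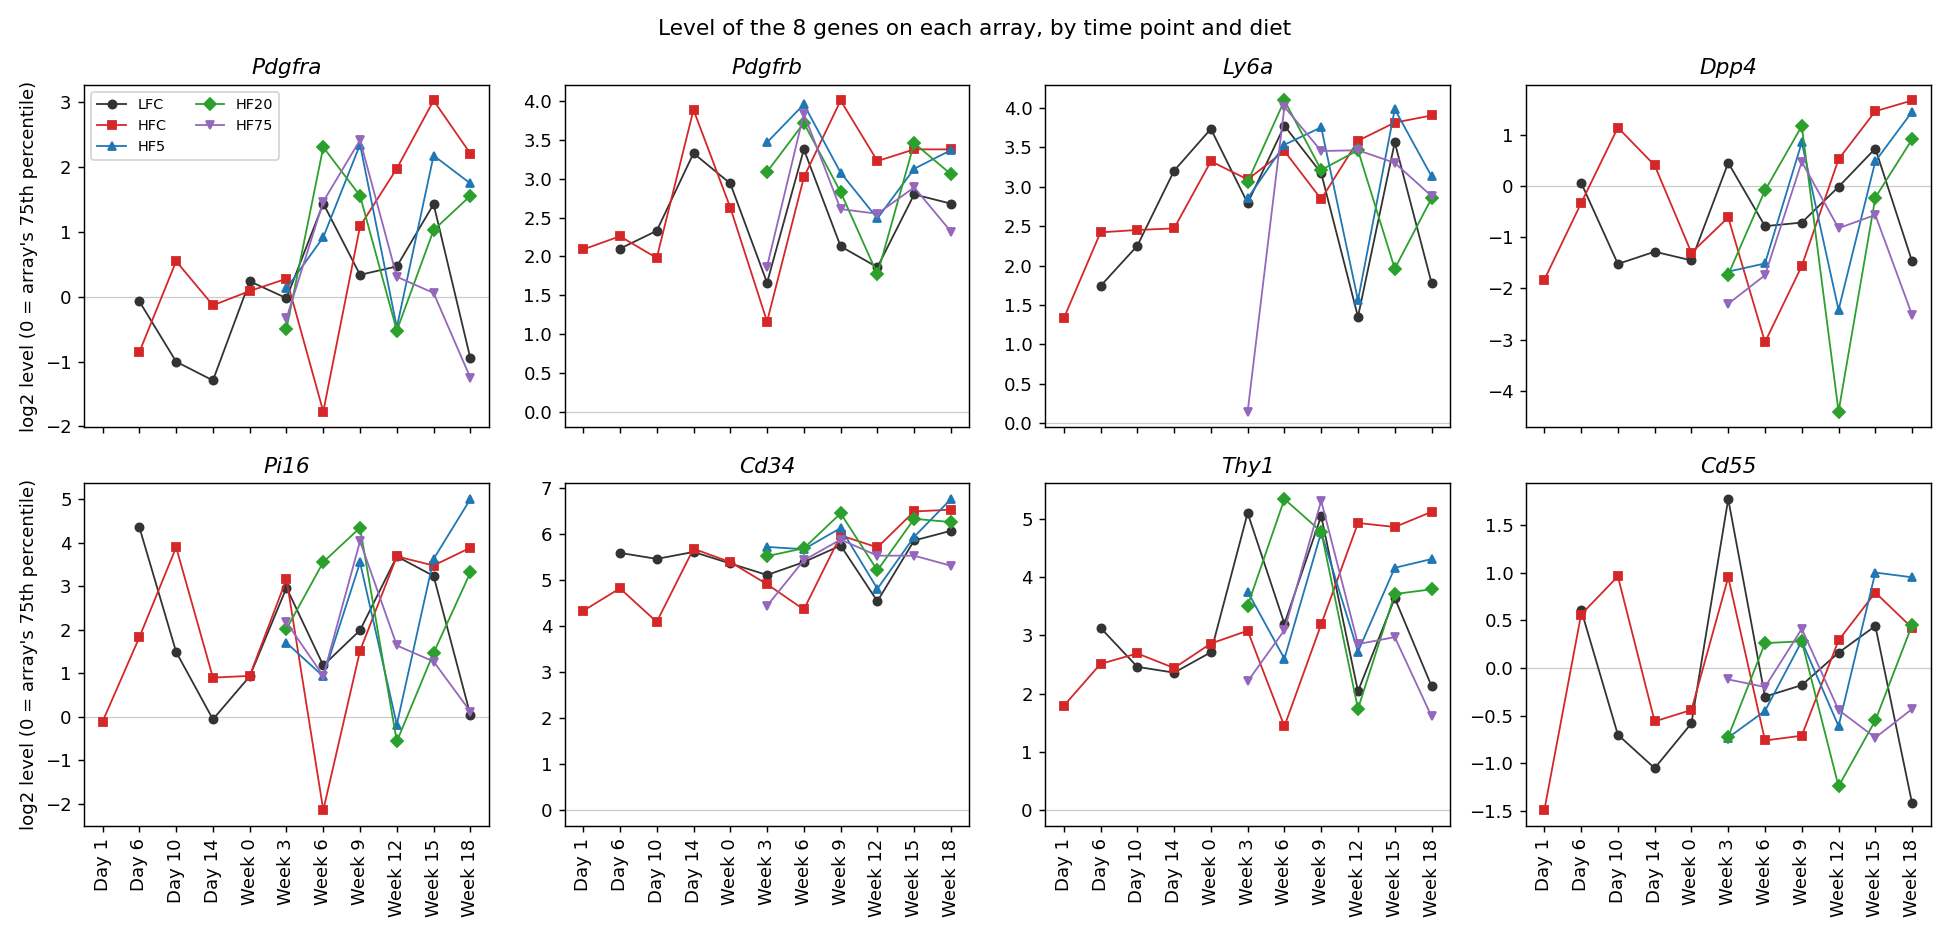
Log2 level of each of the 8 genes (vertical axis, 0 is the 75th percentile of the array) on each array, by time point (horizontal axis) and diet (colour and symbol, lines join the arrays of a diet). Each point is 1 array. Pi16, Dpp4, Pdgfra and Thy1 dropped together on HFC Week 6, where Pi16 stood at -2.15 and Dpp4 at -3.05, and the diets cross repeatedly.

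Across the 39 arrays Dpp4 and Pi16 had a Pearson r of 0.841 and a Spearman rho of 0.794, both with a permutation p of 1e-05, the smallest that 100000 permutations can give (adjusted p = 7.4e-05 for r over a family of 148 relations). For Pi16 and Cd55 r was 0.805 and rho 0.802, and for Dpp4 and Cd55 r was 0.736 and rho 0.75, with the same permutation p. Age and time on the diet differ between time points, so each relation was also computed on deviations from the mean of the time point (38 arrays, permuted within time points). It came to 0.894 for Dpp4 and Pi16, 0.781 for Pi16 and Cd55 and 0.812 for Dpp4 and Cd55. Without the 2 arrays farthest from the median of the first gene the 3 values were 0.818, 0.817 and 0.717. Among 17206 other genes, Pi16 was the gene most like Cd55, Dpp4 ranked 9 for likeness to Pi16, and Pi16 ranked 14 for likeness to Dpp4. Of the 14 lists of genes for cell types and functions, described below, that of fibroblast matrix was the closest to Dpp4 and Pi16, with r of 0.792 and 0.793 (0.857 and 0.883 within time points), and it had r of 0.632 with Cd55 (0.697 within time points). Other cell lists moved with the same 3 genes. The macrophage mean had r of 0.62 with Dpp4, 0.446 with Pi16 and 0.562 with Cd55 (within time points 0.767, 0.629 and 0.732). The endothelial mean had r of -0.327, -0.441 and -0.463 with them, and the first of these did not pass over all arrays (adjusted permutation p = 0.0821, but 0.018 for its rho of -0.4265). Within time points its r with the 3 genes was -0.519, -0.481 and -0.626, and all 3 passed (adjusted permutation p of 0.017, 0.00474 and 0.00766). The part of these cells was not tested.

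Pdgfra, the receptor that marks most adipose fibroblasts and progenitors, followed the same arrays. Its level was missing on HFC Day 1, where the spot had an outlier flag, and on the other 38 arrays it spanned 27.9-fold from -1.77 on HFC Week 6 to 3.03 on HFC Week 15. The lowest, median and highest Pdgfra levels were -1.29, 0.11 and 1.44 in LFC, -1.77, 0.42 and 3.03 in HFC, -0.47, 1.33 and 2.35 in HF5, -0.52, 1.29 and 2.31 in HF20 and -1.25, 0.18 and 2.42 in HF75. With Pi16 its r was 0.704 (rho 0.663, permutation p = 2e-05 and 4e-05) over 38 arrays and 0.878 within time points, and with Dpp4 r was 0.693 (rho 0.693, permutation p = 1e-05) and 0.816 within time points. Of 14 gene lists for cell types and functions, the mean of 24 genes for fibroblast matrix (collagens, decorin and others) was the closest to Pdgfra. That relation had r of 0.865 and rho of 0.872 (permutation p = 1e-05) and r of 0.927 within time points, and 0.856 without the 2 arrays farthest from the median of the list.

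Thy1 spanned 14.9-fold, from 1.44 on HFC Week 6 to 5.34 on HF20 Week 6. Its lowest, median and highest levels were 2.04, 2.92 and 5.1 in LFC, 1.44, 2.86 and 5.12 in HFC, 2.6, 3.95 and 4.77 in HF5, 1.74, 3.75 and 5.34 in HF20 and 1.61, 2.91 and 5.31 in HF75. It stood close to the fibroblast genes and to T cells at the same time. With Pdgfra r was 0.780 (rho 0.778, permutation p = 1e-05), and with the fibroblast matrix list 0.846 (rho 0.830, permutation p = 1e-05). With the mean of 10 T cell genes r was 0.826 (rho 0.769, permutation p = 1e-05) and 0.805 within time points, and with 8 B cell genes it was 0.667 (rho 0.567, permutation p = 1e-05 and 0.0003). The 2 arrays with the highest T cell mean, LFC Week 3 at 1.33 and LFC Week 9 at 0.22, had Thy1 levels of 5.1 and 5.05, which were the 2 highest of LFC. The T cell list also ran with Dpp4 (r of 0.62, rho 0.67, permutation p = 2e-05 and 1e-05) and Pi16 (r of 0.565, rho 0.5682, permutation p = 0.00014 and 0.0002), and in all it passed with 7 of the 8 genes, Pdgfrb being the exception (r of 0.0973). Its relation to Ly6a passed for r alone (adjusted permutation p = 0.0402, against 0.0816 for rho and 0.108 within time points). Over the 39 arrays Cd3e was well above background on 28 and Cd8a on 34, and the T cell mean ranged from -3.96 to 1.33 in LFC, -5 to -0.99 in HFC, -3.62 to -0.69 in HF5, -3.74 to -0.62 in HF20 and -5.16 to -0.03 in HF75. The part of T cell RNA in the Thy1 level was not tested.

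**Figure D2:**
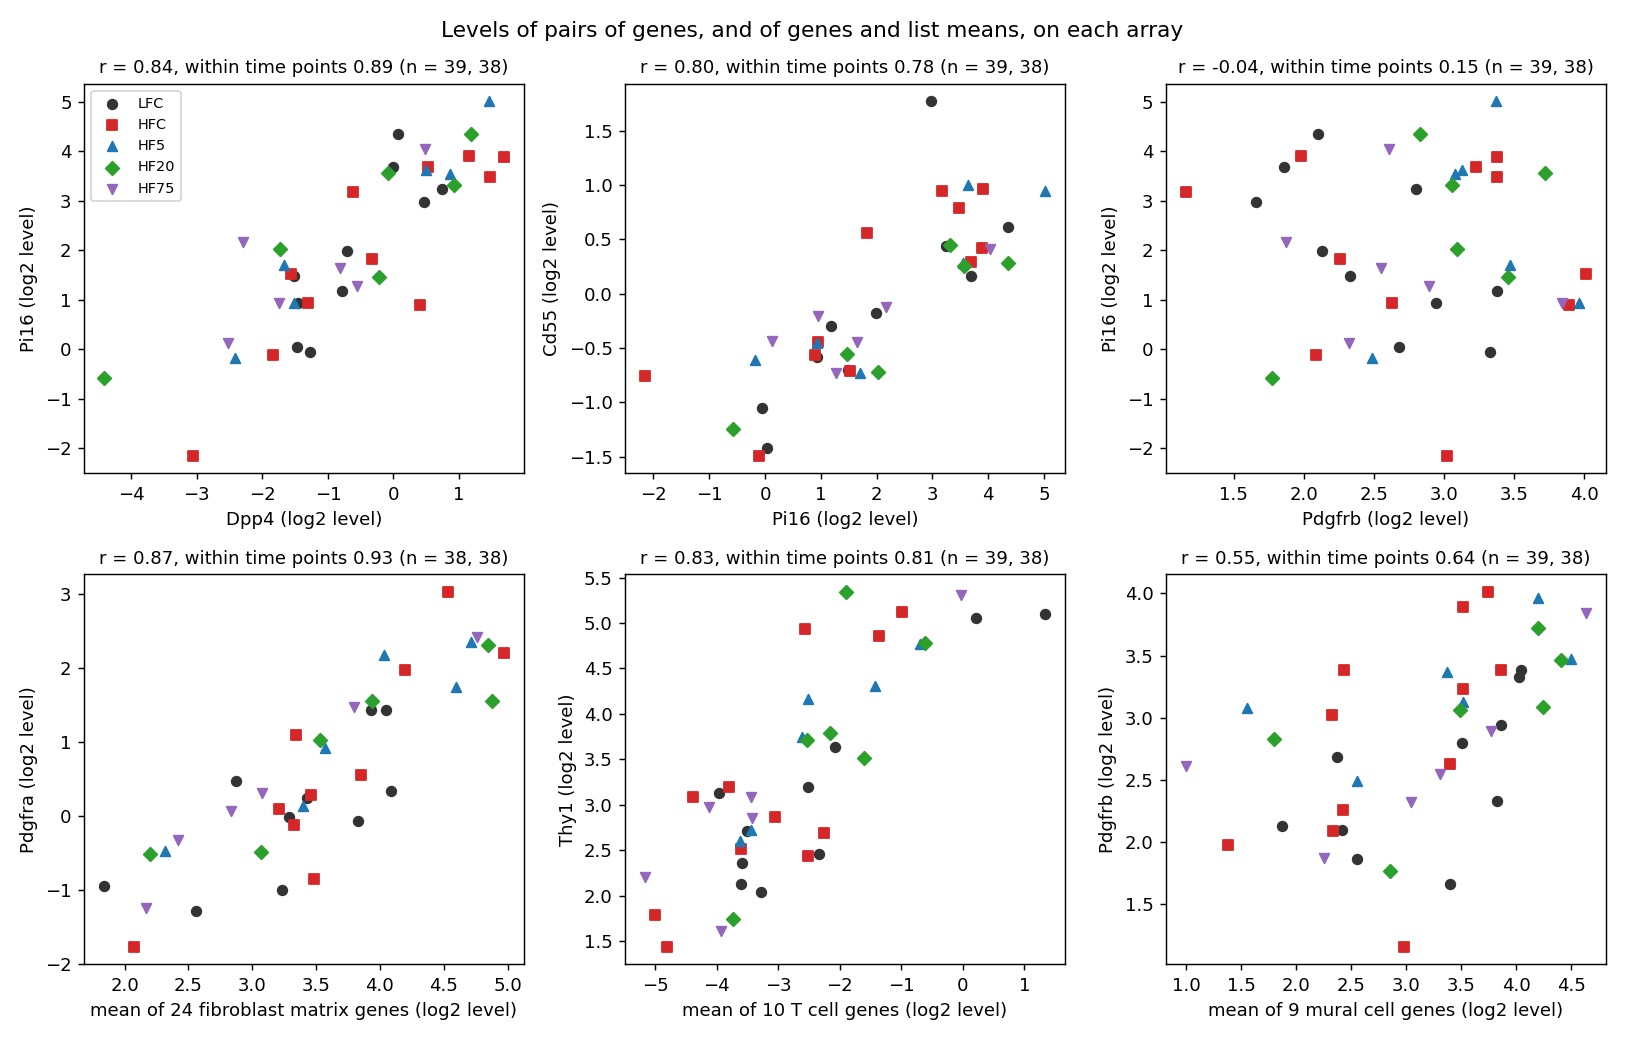
Log2 levels on each array (1 point per array, colour and symbol give the diet) for 3 pairs of genes (top) and for 3 genes against the mean level of a list (bottom), with Pearson r over all arrays and within time points above each panel. Pi16 rises with Dpp4 (r = 0.84) and Cd55 (r = 0.80) but not with Pdgfrb (r = -0.04), while r is 0.87 for Pdgfra with the fibroblast matrix list, 0.83 for Thy1 with the T cell list and 0.55 for Pdgfrb with the mural cell list.

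Pdgfrb did not follow the early progenitor genes. It spanned 7.21-fold, from 1.16 on HFC Week 3 to 4.01 on HFC Week 9. Its lowest, median and highest levels were 1.66, 2.5 and 3.38 in LFC, 1.16, 3.02 and 4.01 in HFC, 2.49, 3.25 and 3.96 in HF5, 1.77, 3.08 and 3.72 in HF20 and 1.87, 2.58 and 3.84 in HF75. With the 3 genes of the early progenitor its r was -0.04 (Pi16, permutation p = 0.795), 0.170 (Dpp4, permutation p = 0.303) and -0.188 (Cd55, permutation p = 0.255), none of which passed the test. With its sister receptor Pdgfra r was 0.406 (rho 0.417, permutation p = 0.0112 and 0.01, adjusted p = 0.0243 for r, but r of 0.291 and adjusted p = 0.155 with normexp), and with Cd34 it was 0.574 (rho 0.592, permutation p = 0.00015). The list closest to Pdgfrb held 11 other genes of the PDGF pathway (the ligands, Pdgfrl and signalling partners such as Grb2 and Src), with r of 0.752 and rho of 0.804 (permutation p = 1e-05). With 9 mural cell genes, such as Acta2 and Rgs5, r was 0.551 (rho 0.647, permutation p = 0.00032 and 2e-05) and 0.644 within time points. That r was no higher than those with the other progenitor genes (0.64), mesothelium (0.564), endothelium (0.56) and mammary epithelium (0.553). With skeletal muscle genes it was -0.56 (rho -0.62, permutation p = 0.0003 and 7e-05), against -0.252 within time points and did not pass the test there (permutation p = 0.371).

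Cd34, the sialomucin found on progenitors and endothelium, spanned 6.36-fold, from 4.09 on HFC Day 10 to 6.76 on HF5 Week 18. Its spot was saturated on 4 arrays (LFC Week 15, HFC Day 14, HFC Week 12 and HF75 Week 12), where the level is a lower bound. Differences, slopes and correlations of Cd34 that use these arrays carry that limit. The lowest, median and highest Cd34 levels were 4.54, 5.53 and 6.07 in LFC, 4.09, 5.39 and 6.53 in HFC, 4.81, 5.83 and 6.76 in HF5, 5.21, 5.98 and 6.45 in HF20 and 4.44, 5.48 and 5.88 in HF75. It ran closest to a list of 18 other progenitor genes (such as Cd248, Prrx1 and Ebf2), with r of 0.751 (rho 0.757, permutation p = 1e-05), and to Thy1, with r of 0.6247 (rho 0.658, permutation p = 4e-05 and 3e-05). Its relation to Cd55 did not pass, at r of 0.15 (rho 0.202, permutation p = 0.365 and 0.22). With 9 endothelial genes r was 0.377 (permutation p = 0.0177), while rho was 0.157 (permutation p = 0.340) and r was 0.207 without the 2 arrays farthest from the median of the list, so that relation rests on those arrays. Ly6a spanned 15.3-fold, from 0.15 on HF75 Week 3 to 4.09 on HF20 Week 6. Its lowest, median and highest levels were 1.35, 2.98 and 3.77 in LFC, 1.33, 3.09 and 3.9 in HFC, 1.56, 3.33 and 3.98 in HF5, 1.96, 3.14 and 4.09 in HF20 and 0.15, 3.37 and 4.01 in HF75. It was low where muscle RNA was high, with r of -0.685 to the muscle list (rho -0.55, permutation p = 1e-05 and 0.00043). Within time points that r was -0.515, with an adjusted permutation p of 0.0784. HF75 Week 3 had the lowest Ly6a level and the highest muscle mean at once, and its endothelial mean (1.14) and macrophage mean (-2.23) were also the lowest of all arrays. The part of these in its Ly6a level was not tested. With 9 macrophage genes r was 0.672 (rho 0.599, permutation p = 1e-05 and 6e-05), but 0.485 without HF75 Week 3 and HFC Day 1. With the other progenitor genes the r of Ly6a was 0.680 (rho 0.631, permutation p = 1e-05 and 2e-05), and 0.569 without the same 2 arrays. The PDGF pathway, fibroblast matrix and endothelial lists also passed with Ly6a for r (adjusted permutation p of 0.000247, 0.00267 and 0.00429).

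In all, 20 of the 28 pairs of members had an adjusted permutation p below 0.05, and every one of these was positive. The share of passing pairs over all genes was not computed. Among 17206 genes, passing pairs ranked from 1 (Pi16 for likeness to Cd55) to 3240 (Pi16 for likeness to Cd34, r of 0.405). Many genes that are not members thus had r as high as the weaker of these pairs. On deviations within time points 16 pairs passed, all of them among the 20. The 4 that dropped out were Pdgfrb with Ly6a and Cd34 with Ly6a, Dpp4 and Pi16. Members and list means passed in 54 of 112 relations, 42 of which also passed within time points. With normexp background correction 39 passed, 30 of them also within time points. The mean of the 14 adipocyte genes had an adjusted permutation p below 0.05 with 4 of the 8 members, Pdgfra, Pdgfrb, Cd34 and Thy1, all negative, the lowest r being -0.543 for Pdgfra (rho -0.448, permutation p = 0.00053 and 0.00522), and within time points it passed with 6, Dpp4 (r of -0.554) and Pi16 (r of -0.593) added, with r of -0.782 for Thy1. The 75th percentile of signal on the array passed with none of the 8 genes over all arrays, with r from -0.28 to 0.13. Within time points all r were positive, from 0.0523 (Cd34) to 0.491 (Dpp4, adjusted permutation p = 0.0531). Cd55 alone passed there (r of 0.437, adjusted permutation p = 0.0365), and Pi16 did not (r of 0.423, adjusted permutation p = 0.0805). Without the 6 arrays with mesothelium RNA 4 of the 8 passed within time points. The part of signal intensity in the relations of the members was not tested.

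**Figure D3:**
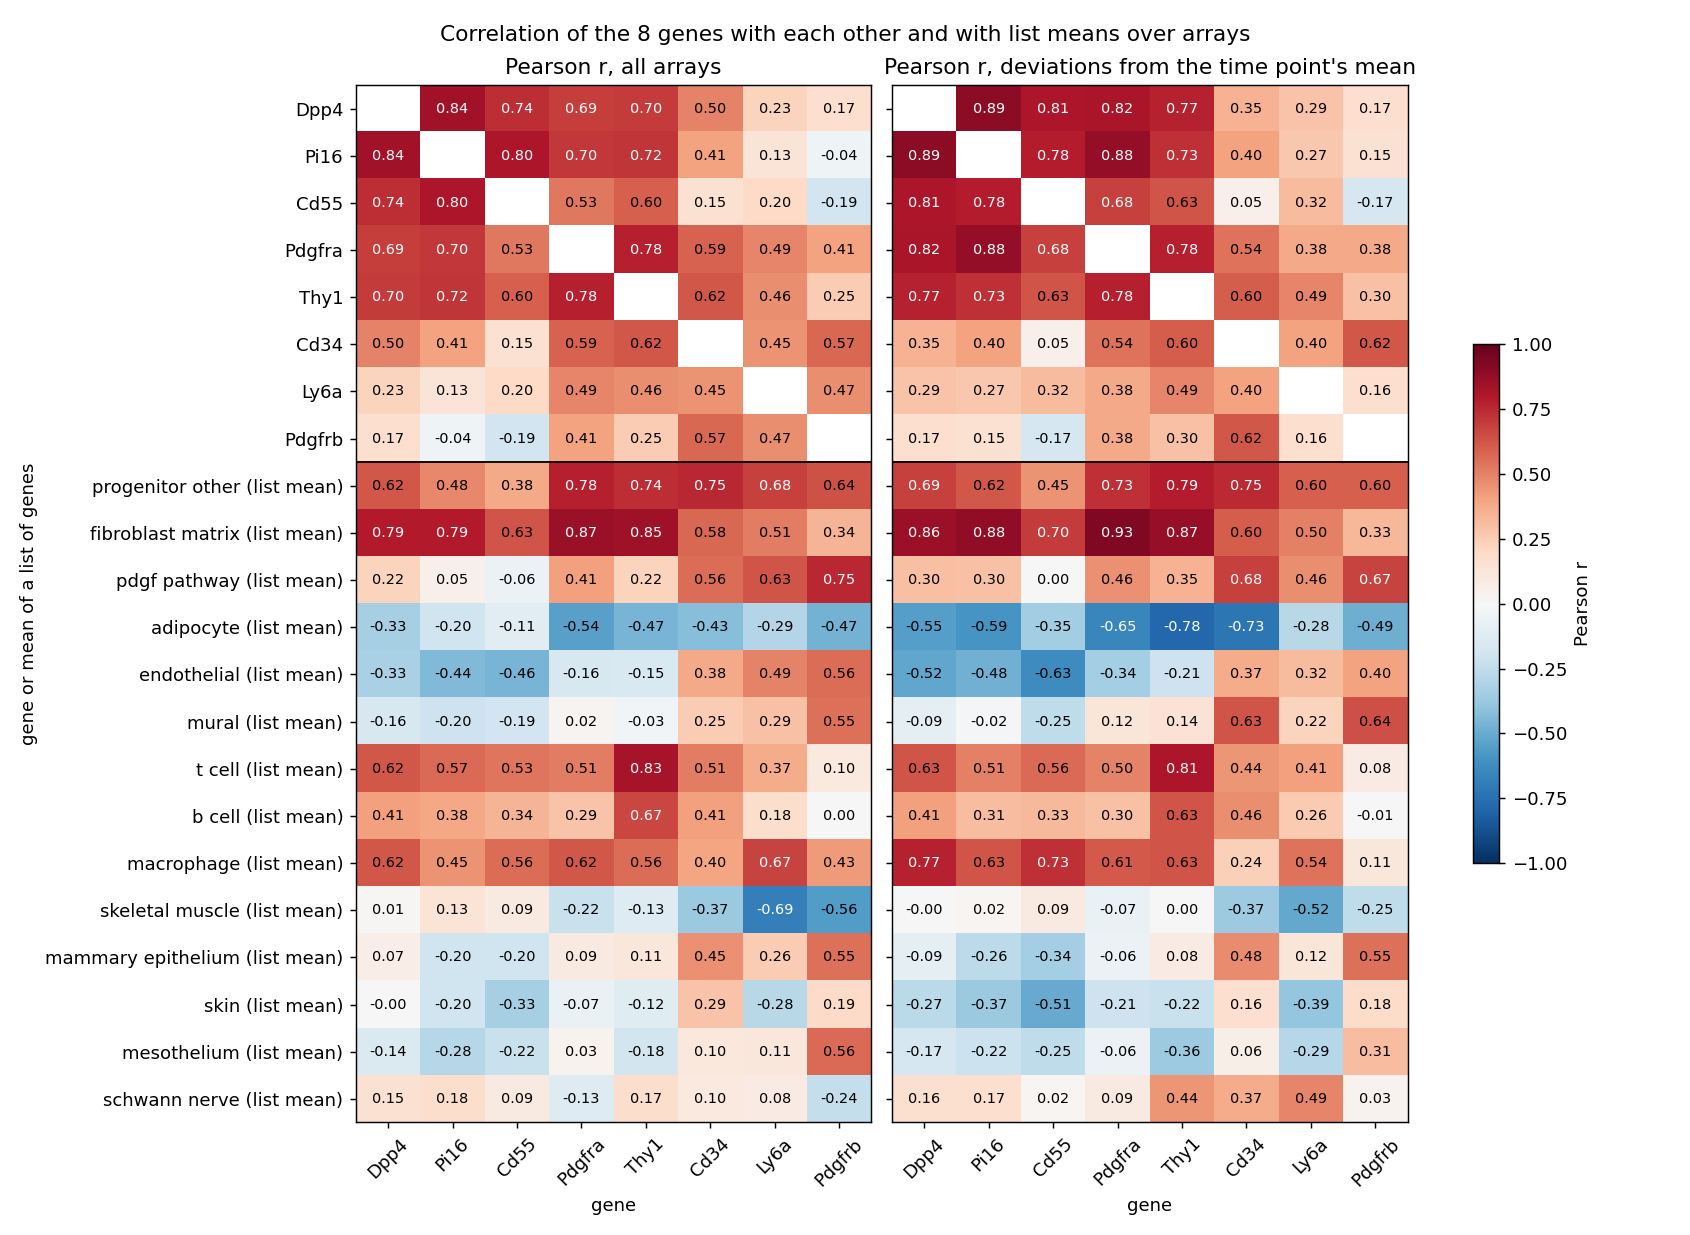
Pearson r of each of the 8 genes (columns) with the other members and with the mean level of 14 gene lists (rows), over all arrays (left) and on deviations from the mean of the time point (right). The numbers are r and the colour runs from -1 (blue) to 1 (red). Dpp4, Pi16, Cd55, Pdgfra and Thy1 form a block with r from 0.53 to 0.84 over all arrays, and Pdgfrb stands outside it.

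By a rule on likeness alone, the 3 genes with the highest r over the arrays were named for each member, as a description without a test. For Pdgfra these were Ms4a4d (r = 0.937), the procollagen protease Adamts2 (r = 0.918) and the matrix protein gene Abi3bp (r = 0.917). For Pi16 they were the secreted Wnt antagonist Sfrp4 (r = 0.895), Fndc1 (r = 0.893) and the ligand Wnt2 (r = 0.877), and for Dpp4 they were the receptor Notch2 (r = 0.918), the ligand Bmp7 (r = 0.895) and Glt8d4 (r = 0.888). Cd55 had Pi16, the cytokine Il18 (r = 0.793) and Ms4a6b (r = 0.768). Thy1 had Ikzf1 (r = 0.881), a transcription factor of lymphocytes, LOC100048841 (r = 0.880) and Gimap3 (r = 0.871), a gene of the lymphocyte GTPase family. Ly6a had the interferon-induced Ifitm7 (r = 0.878) and Ifitm2 (r = 0.877) and Gm8144 (r = 0.873). Pdgfrb had the ligand Bmp4 (r = 0.856), Lrrc49 (r = 0.834) and Prkar1b (r = 0.813), and Cd34 had G2e3 (r = 0.868), Lima1 (r = 0.861) and Cnrip1 (r = 0.835).

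The high-fat diet was compared with the low-fat diet to ask whether these genes change with fat feeding. Over the 10 time points with both diets, 0 of the 8 genes differed in the limma fit across 19873 genes (adjusted p from 0.817 to 0.971), where 0% of all genes were called. At an unadjusted p under 0.05 the fit had 0 of the 8, beside 5.86% of all genes, and an unmoderated test over the differences of the time points had 0 of the 8. Pdgfra was 0.59 higher in HFC (SE 0.49, 95% confidence interval -0.48 to 1.66), and higher at 7 of 10 time points, with single differences from -3.22 at Week 6 to 3.16 at Week 18. Leaving out 1 time point moved it between 0.3 (without Week 18) and 1.01 (without Week 6, unadjusted p = 0.0167, adjusted p = 0.795 in limma), and array quality weights turned it to -0.03. Pdgfrb was 0.37 higher (SE 0.25, -0.18 to 0.92), Ly6a 0.4 (SE 0.31, -0.27 to 1.07) and Dpp4 0.43 (SE 0.48, -0.62 to 1.49), each higher at 6 of 10. Without 1 time point these ran from 0.21 to 0.47 for Pdgfrb, 0.2 to 0.53 for Ly6a and 0.13 to 0.73 for Dpp4, and array quality weights turned Ly6a to -0.08. The median difference of the 8 genes was 0.32 and that of all genes -0.04. The macrophage list had a median of 0.62 there, with 4 of 9 genes higher at an unadjusted p under 0.05, and the skeletal muscle and T cell lists had medians of -0.79 and -0.63, and their part was not tested. From Week 3 to Week 18, in the fit of 5 diets over 21087 genes, all 8 differences were above 0 with the 6 time points together but none passed (adjusted p from 0.85 to 0.995, with 0% of all genes called), and 0 of 8 had an unadjusted p under 0.05, beside 5.06% of all genes. The smallest p was that of Pdgfrb, 0.61 higher in HFC (SE 0.33, -0.07 to 1.3, unadjusted p = 0.0778 in limma). The Cd34 difference uses a saturated array of each diet, where the level is a lower bound. The direction of 4 genes turned without Week 18, to -0.58 for Dpp4, -0.67 for Pi16, -0.31 for Thy1 and -0.27 for Cd55, and that of the same 4 with scan day as the block. The second Dpp4 probe gave -0.07, and the third, well above background on 15 of 39 arrays, gave -0.79. In this comparison the skeletal muscle list had a median of -1.92, the T cell list -1.33 and the B cell list -1.64, and their part was not tested.

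Single time points moved these differences in both directions. Without the arrays of Week 6, Pdgfra was 1.46 higher in HFC than in LFC over Week 3 to Week 18 (unadjusted p = 0.0225, adjusted p = 0.8 in limma), against 0.68 with them, and -1.48 for HF75 minus HFC, against -0.69 with them (unadjusted p = 0.0214, adjusted p = 0.802). Without the arrays of Week 18 the same differences of Pdgfra were 0.19 and -0.14. Both differences hold the HFC arrays, with opposite signs. The HFC array of Week 6 had the lowest Pdgfra (-1.77), Pi16 (-2.15) and Thy1 (1.44) of all arrays, and its T cell mean was -4.81. Its Schwann cell mean (-3.28) and B cell mean (-6.08) were the lowest of all arrays. Of the 5 arrays of Week 6, 4 were among those with a high mesothelium mean, and HF20 was not (-6.87). The part of these cells was not tested. Of the 5 arrays of Week 6 it was the lowest for all 8 genes, Ly6a (3.45) and Pdgfrb (3.02) included, although these lay above their means over all arrays (2.94 and 2.81). Without the 6 arrays with a high mesothelium mean (7 time points left where LFC and HFC alone were compared), no member was called either, and most differences were larger. Pdgfra was then 1.89 higher in HFC than in LFC over Week 3 to Week 18 (unadjusted p = 0.00476, adjusted p = 0.481 in limma) and 1.03 higher over all time points (unadjusted p = 0.0465, adjusted p = 1). These arrays were left out after seeing the data. The effect of HFC was also compared between late and early time points, and it differed for 0 of the 8 genes (adjusted p of 1 in limma, 0% of all genes called, 0 of 8 at an unadjusted p under 0.05 beside 1.89% of all genes). For Dpp4 the late effect minus the early one was -0.99 (SE 0.99), and for Ly6a it was 0.78 (SE 0.61).

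**Figure D4:**
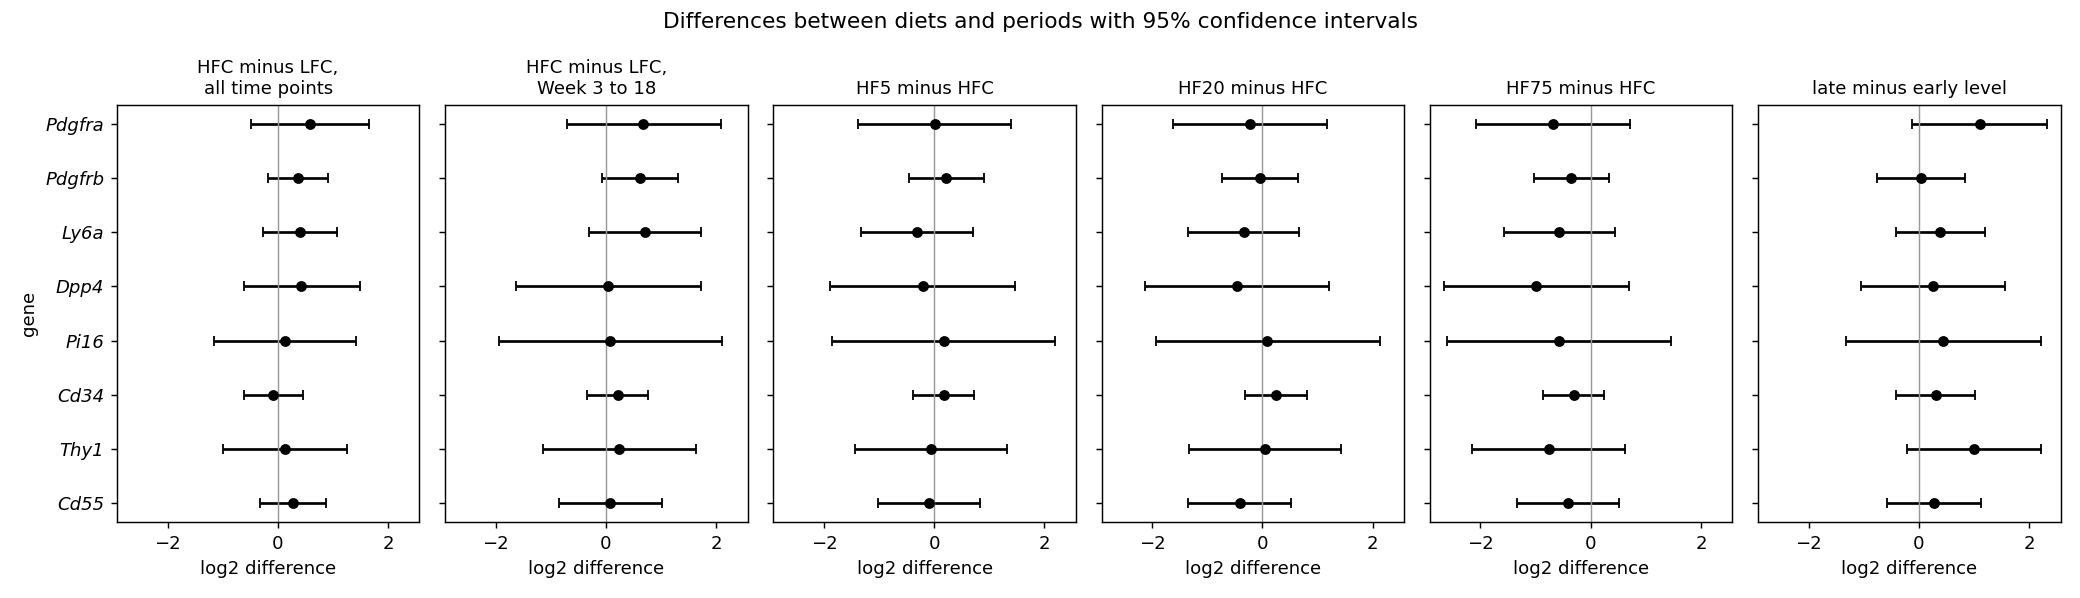
Log2 difference (horizontal axis) of each gene (vertical axis) for 6 comparisons, with the 95% confidence interval of the limma fit. Every interval includes 0, and that of Pi16 is the widest in each panel.

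KAL-1 was given at 3 doses on top of the high-fat diet, and each dose was compared with HFC over 6 time points. The 3 comparisons share the HFC arrays, so they are given side by side. HFC minus LFC holds the same HFC arrays with the opposite sign, so opposite differences there and here are not separate results. Cd34 was saturated, its level a lower bound, on an HFC array that all 3 comparisons share and on an HF75 array. The Cd34 differences, intervals and signs given here carry that limit. None of the 8 genes differed at any dose in limma (adjusted p of 1 for HF5, from 0.997 to 0.998 for HF20 and from 0.87 to 0.934 for HF75), where 0% of all genes were called. With normexp background correction, however, 8113 genes, none of them a member, were called for HF20. The part of HF20 Week 15, with its 4936 outlier spots, in that count was not tested. At an unadjusted p under 0.05 there were 0 of 8 at each dose, beside 1.36%, 4.27% and 5.02% of all genes, and 0 of 8 by the unmoderated test over time points. At 5 µg the differences ran from -0.31 (Ly6a) to 0.22 (Pdgfrb). At 20 µg they ran from -0.47 (Dpp4) to 0.25 (Cd34). At 75 µg all 8 were below 0, from -0.99 (Dpp4, SE 0.81, -2.67 to 0.69) to -0.31 (Cd34, SE 0.27, -0.86 to 0.25), with a median of -0.57 where that of all genes was 0. Without Week 18 they were smaller, at -0.34 for Dpp4, -0.14 for Pdgfra, -0.21 for Thy1, -0.12 for Cd34 and 0.07 for Pi16. In the same comparison the 8 skeletal muscle genes had a median of 3.25 and the 9 macrophage genes a median of -0.74. At an unadjusted p under 0.05, 5 of the muscle genes were higher and 3 of the macrophage genes lower. The muscle median was 2.6 at 5 µg and 2.26 at 20 µg, each with 3 of 8 genes at an unadjusted p under 0.05. The muscle mean of single arrays ran from -3.3 to 7.57 in HF75 and from -4.75 to 6.22 in HFC, and the part of these tissues in the differences of the members was not tested. At that dose the difference of Pdgfra was -0.69 (SE 0.67), that of Thy1 -0.76 (SE 0.67) and that of Pi16 -0.57 (SE 0.98), and each was higher than HFC at 2 of 6 time points. That of Ly6a was -0.57 (SE 0.49), but -0.09 without 4 arrays with much RNA of other tissues, HF75 Week 3 among them. Over the 3 doses together 7 of 8 differences were below 0, from -0.55 (Dpp4) to 0.04 (Cd34), with an adjusted p of 1 in limma (0% of all genes called, 4.51% at an unadjusted p under 0.05 and 0 of 8 members). Without the 6 arrays with a high mesothelium mean, HF75 minus HFC was -1.91 for Pdgfra, -1.88 for Thy1, -2.18 for Dpp4 and -0.67 for Cd34, each at an unadjusted p under 0.05 (lowest adjusted p = 0.453 in limma), and Pdgfra, Dpp4 and Thy1 were at -1.52, -1.88 and -1.36 for HF20 minus HFC (unadjusted p of 0.0185, 0.0435 and 0.0393, adjusted p = 1). In HF5 minus HFC Pdgfra then turned to -0.96 and Pi16 to -1.12. A test of any difference among the 5 diets had 0 of 8 as well (adjusted p of 0.993, 0% of all genes called, and 0 of 8 at an unadjusted p under 0.05 beside 1.76%), and its smallest unadjusted p was again that of Pdgfrb (0.138).

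In Week 3 to Week 18 the order of the diet means was read for each gene. Pdgfra was at 1.14 ± 1.71 in HFC and 1.14 ± 1.15 in HF5, 0.91 ± 1.17 in HF20 and 0.45 in LFC (± 0.91) and HF75 (± 1.31) (SD, n = 6 each). Pi16 was highest in HF5 (2.44 ± 1.95), then HF20 (2.36 ± 1.78), HFC (2.27 ± 2.33), LFC (2.18 ± 1.39) and HF75 (1.7 ± 1.34). Dpp4 ran from -0.26 ± 1.84 in HFC and -0.29 ± 0.84 in LFC to -1.24 ± 1.15 in HF75. Pdgfrb ran from 3.25 ± 0.49 in HF5 to 2.42 ± 0.65 in LFC. No order was read for Cd34, since its means in LFC, HFC and HF75 hold a saturated array each and are lower bounds. Ly6a ran from 3.44 ± 0.41 in HFC to 2.73 ± 0.97 in LFC, Thy1 from 3.81 ± 1.24 in HF20 to 3.01 ± 1.26 in HF75, and Cd55 from 0.16 ± 0.74 in HFC to -0.25 in HF20 (± 0.68) and HF75 (± 0.39). Neighbouring diets in these orders differed by less than the standard deviation within a diet, and the highest and the lowest diet differed by less than it for Pi16, Pdgfra and Thy1.

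Time was compared in 2 ways, late against early in LFC and HFC and per week from Week 3 to Week 18. Late levels were above early ones for all 8 genes, by a median of 0.35 (all genes -0.01), but 0 of 8 passed (adjusted p from 0.617 to 0.978 in limma, 0.00503% of all genes called, and 0 of 8 at an unadjusted p under 0.05 beside 8.52%). Pdgfra was 1.1 higher late (SE 0.59, -0.12 to 2.32, adjusted p = 0.617) and Thy1 1 higher (SE 0.58, -0.22 to 2.22). Early Thy1 lay between 2.36 and 3.13 in LFC and 2.44 and 2.86 in HFC, and late Thy1 spread from 2.04 to 5.1 and 1.44 to 5.12. In the same comparison the 8 skeletal muscle genes had a median of -2.74 and the 6 Schwann cell genes a median of -1.26, each with 2 lower at an unadjusted p under 0.05. The T cell and macrophage lists had medians of 0.75 and 0.52. The part of these cells in the levels of the members was not tested. The direction turned in 8 of 21 other settings for Pdgfrb, in 2 each for Dpp4 and Pi16 and in 1 for Cd55. Early arrays came from younger mice, so age and time on the diet cannot be told apart. Per week, Cd34 rose by 0.06 on the log2 scale (SE 0.02, 0.01 to 0.11) with an unadjusted p of 0.0186, which did not pass over all genes (adjusted p = 0.807 in limma). It was the only one of the 8 genes at an unadjusted p under 0.05, beside 5.53% of all genes, and 0 of 8 were called beside 0.00474% of all genes. An array each of LFC, HFC and HF75 in this slope had a saturated Cd34 spot, where the level is a lower bound. The slope of Cd34 and its p carry that limit. The slopes of the other 7 genes lay between 0 and 0.09 per week.

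Genes with related roles were read from 3 lists. Of 18 other progenitor genes, 0 were called in any of the 10 comparisons in limma. At an unadjusted p under 0.05, 2 were higher in HFC than in LFC over Week 3 to Week 18, F3 (tissue factor, 1.1 higher) and Zfp423 (a zinc finger factor of preadipocytes, 0.76 higher), beside 5.06% of all genes. The median of the 18 was 0.49, and that of all genes -0.06. Cd24a, a surface marker of early progenitors, was 1.31 higher in HF75 than in HFC and 1.2 and 1.09 higher in HF5 and HF20 (unadjusted p of 0.0111, 0.019 and 0.0312 in limma, lowest adjusted p = 0.866). In HF5 and HF20 it was the only 1 of the 18 at an unadjusted p under 0.05, beside 1.36% and 4.27% of all genes. The median of the 18 was -0.06 in HF5, -0.08 in HF20 and -0.47 in HF75. The 3 doses share the HFC arrays here too, and HFC minus LFC holds them with the opposite sign. In HF75 minus HFC, Cd44 was at -1.29 and F3 at -0.95 (unadjusted p of 0.0307 and 0.0369), so that 3 of 18 were at an unadjusted p under 0.05 beside 5.02% of all genes. Of 24 fibroblast matrix genes 0 were called, and Col6a1, a chain of collagen VI, differed by 1.52 for HFC minus LFC over Week 3 to Week 18 and by -1.64 for HF75 minus HFC (unadjusted p of 0.0336 and 0.0228 in limma). At an unadjusted p under 0.05 there were 1 of 24 in the first and 2 of 24 in the second, beside 5.06% and 5.02% of all genes. The median of the 24 was 0.4 in the first of these and -0.69 in the second. Both comparisons hold the HFC arrays, with opposite signs. Of 11 other PDGF pathway genes 0 were called. Over Week 3 to Week 18 the difference of HFC minus LFC was 0.74 for Src, 0.81 for the ligand Pdgfc and -0.47 for the adaptor Grb2, each at an unadjusted p under 0.05 in limma (adjusted p = 0.85 for Src), and that of HF75 minus HFC was -0.72 for Src and -0.55 for Shc1, likewise unadjusted. These were 3 and 2 of 11, beside the same shares of all genes. Over all 10 time points of LFC and HFC it was 0 of 11 (Pdgfc 0.69, unadjusted p = 0.0658).

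The other probes of the members were read to see whether a gene gave 1 answer. The second Dpp4 probe followed the first with r of 0.983 over the arrays and the third with r of 0.704. The third was well above background on only 15 of 39 arrays. By the fit over all probes, the first 2 Dpp4 probes gave -0.47 and -0.34 for HF20 minus HFC, and the dim one gave 0.62 (none called in limma, adjusted p of 0.999 each). For HFC minus LFC over all time points the first 2 gave 0.43 and 0.37 and the dim one -0.3, none of them called. The second Pdgfra probe, well above background on 28 arrays, had r of 0.853 with the first. It gave 0.58 for HFC minus LFC over all time points, where the first gave 0.59. In other comparisons the pair had opposite signs, with 0.29 against -0.23 for HF20 minus HFC, 0.16 against -0.3 for the KAL-1 diets minus HFC and -0.44 against 0.24 for the late minus early effect of HFC, none of them called. The second Thy1 probe had r of 0.844 with the first and gave 0.53 there, against 0.13.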

How the data were processed

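Total RNA of subcutaneous adipose was labelled with Cy3 by the authors and hybridised to 1-colour Agilent arrays, 1 array per sample. The deposited array files hold spot intensities on a linear scale, background-subtracted by Agilent Feature Extraction (version 10.5.1.1 per the file headers, 9.1 in the submitters' processing notes). The deposited table of the whole series holds log2 ratios that matched the log2 level of each array minus that of the matching LFC array. The software behind the table, per the authors' methods for another tissue, was GeneSpring.

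The level was log2 of the processed intensity minus log2 of the 75th percentile of the 43803 spots that were not controls, with outlier spots left out. A gene was read by its probe with the highest mean, from the 40628 probes. Genes were kept when well above background on at least 10 of the 20 LFC and HFC arrays (19873 genes) or 6 of the 30 arrays of Week 3 to 18 (21087 genes). Diets were compared in limma 3.58.1 (R 4.3.3) with time point as a fixed block, and time was compared with time point as a random block (duplicateCorrelation, consensus correlation 0.268 for late minus early and 0.168 per week). P-values were adjusted over all genes by Benjamini-Hochberg at a threshold of 0.05. The precision is limited by the number of arrays. P-values measure the spread between these arrays, which may be technical. The arrays lay on 36 slides and were scanned on 14 days.

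Correlations over arrays were tested two-sided with 100000 permutations (Python 3.11.15, scipy 1.17.1) and adjusted over 148 relations. For likeness, genes well above background on at least 30 arrays were used. The scripts were tested on simulated data.

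All 8 members are named in each comparison, with the 3 genes most like each, and from each list up to 3 genes with the smallest p. The members and lists were chosen with earlier results of these data known. Alternatives covered the background correction (normexp, offset 50), quantile normalization, the filter, all probes, outlier spots, the prior, array weights, slide, scan day, the block, an unmoderated t-test over the time points' differences (the methods' own test compares replicates within a time point, and 1 array per diet and time point was analysed here), the deposited ratios and leaving out each time point. The exchange of the Week 12 arrays of HF5 and HF20, and leaving out 4 arrays with RNA of other tissues (HF75 Week 3, HF5 Week 12, LFC Week 3 and HFC Day 14) or 6 arrays with mesothelium RNA (HFC Day 14, HFC Week 9 and LFC, HFC, HF5 and HF75 Week 6), were chosen after seeing the data. Neither removes all RNA of other tissues (the skeletal muscle mean was 5.25 on HFC Day 6 and 4.59 on LFC Day 6, for example). Promoters were read from RefSeq on GRCm38.p6.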

Additional observations from a re-analysis of the deposited data

Results flagged for a closer look

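Ly6a on HF75 Week 3 stood far below the other arrays of its diet, at 0.15 where the next lowest was 2.88 and the highest 4.01 (n = 6). Its gap to the nearest array was 0.707 of the range of the group. Of 33 groups of a gene and a diet that were tested this was the only one, and chance gives about 1 in 20, so 1 of 33 is no more than chance gives. The test covered groups of up to 10 arrays, so HFC, with 11, was tested for Pdgfra alone. HF75 Week 3 also had the highest skeletal muscle mean of all (7.57) and the lowest endothelial, macrophage and T cell means (1.14, -2.23 and -5.16), whose part in the Ly6a level was not tested. Without Week 3 the difference of Ly6a between HF75 and HFC was -0.1, against -0.57 with it.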

How the results depend on the processing

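No member was called in any of the 10 comparisons under any of 17 alternatives or 10 settings that leave out a time point (1584 tests of members, lowest adjusted p = 0.136 in limma). At an unadjusted p under 0.05, HF75 minus HFC had 0 of 8, but 3 with slide as a random block (Pdgfra, Dpp4 and Thy1), 1 with scan day as the block (Thy1) and 2 without Week 6 (Pdgfra and Cd34). HFC minus LFC in Week 3 to 18 had 0, but 1 (Pdgfrb) with array weights, with slide or without Week 3, and 2 (Pdgfra and Pdgfrb) without Week 6. Late minus early had 0, but 1 (Pdgfra) with normexp and 2 (Pdgfra and Thy1) with array weights, with independent arrays or without Week 6. Without Week 6, HFC minus LFC over all time points and KAL-1 minus HFC had 1 each (Pdgfra) in place of 0. Without the 6 arrays with mesothelium RNA there were 4 for HF75 minus HFC (Pdgfra, Dpp4, Cd34 and Thy1), 3 each for HF20 and KAL-1 minus HFC (Pdgfra, Dpp4 and Thy1) and 1 each (Pdgfra) for HFC minus LFC, in both sets of time points, and for late minus early. The change per week had 1 (Cd34), but 3 with array weights (Dpp4, Cd34 and Cd55) and 0 with quantile normalization or without Week 3, Week 15 or Week 18. Directions were less stable. Of the member differences outside the omission of a time point 62 changed sign, for causes that were not tested, and 994 were not counted as changed. Values that rounded to 0 are among the 994. The changes per week of Thy1 and Cd55 rounded to 0, so no turn could be counted for them, though they ran from -0.04 to 0.04 and from -0.02 to 0.08 over the settings. With array quality weights HFC minus LFC over all time points became -0.03 for Pdgfra, -0.08 for Ly6a, -0.31 for Pi16 and -0.1 for Thy1, the late minus early effect of HFC -0.17 for Pdgfra and -0.42 for Thy1, HF5 minus HFC -0.22 for Pdgfra, HF20 minus HFC -0.44 for Thy1, KAL-1 minus HFC -0.05 for Cd34 and the change per week -0.01 for Pdgfrb. With normexp HFC minus LFC became 0.06 for Cd34 over all time points and -0.12 for both Dpp4 and Cd55 in Week 3 to 18, HF5 minus HFC -0.01 for Pi16, HF20 minus HFC -0.28 for Pi16, -0.39 for Cd34 and -0.52 for Thy1, KAL-1 minus HFC -0.24 for Cd34 and late minus early -0.08 for Pdgfrb. With quantile normalization the values were 0.08 for Cd34 in HFC minus LFC over all time points, -0.1 for Cd34 in KAL-1 minus HFC and -0.04 for Pdgfrb in late minus early. With scan day as the block HFC minus LFC became -0.12 for Thy1 over all time points and -0.45 for Dpp4, -0.34 for Pi16, -0.18 for Thy1 and -0.02 for Cd55 in Week 3 to 18, the late minus early effect of HFC -0.34 for Pdgfra and -0.44 for Thy1, HF5 minus HFC 0.28 for Dpp4, 0.37 for Thy1 and 0.02 for Cd55, HF20 minus HFC 0.05 for Pdgfrb and KAL-1 minus HFC 0.01 for Pdgfrb. With slide as a random block, which could not be fitted for LFC and HFC alone, HF5 minus HFC became -0.09 for Pdgfra and HF20 minus HFC 0.06 for Pdgfra, 0.04 for Pdgfrb and 0.09 for Dpp4. HF5 minus HFC for Ly6a became 0.01 with the deposited ratios and with the Week 12 arrays exchanged, and HF20 minus HFC for Pdgfrb became 0.09 and 0.08. Without the 4 arrays with RNA of other tissues the late minus early effect of HFC became 0.1 for Pi16, HF5 minus HFC 0.09 for Dpp4, 0.03 for Thy1 and 0.02 for Cd55, KAL-1 minus HFC 0.03 for Pi16, late minus early -0.18 for Pi16 and -0.2 for Cd55, and the change per week -0.02 for Ly6a. Without the 6 arrays with mesothelium RNA the late minus early effect of HFC became 0.03 for Dpp4 and 1.12 for Pi16, HF5 minus HFC -0.96 for Pdgfra, -1.12 for Pi16 and -0.14 for Cd34, HF20 minus HFC 0.05 for Pdgfrb, -1.74 for Pi16, -0.05 for Cd34 and -1.36 for Thy1, KAL-1 minus HFC 0.01 for Pdgfrb and -0.29 for Cd34, and the change per week -0.03 for Pi16.

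Without 1 time point at a time, HFC minus LFC over all time points ran from -0.28 to 0.52 for Pi16, -0.22 to 0.06 for Cd34 and -0.19 to 0.37 for Thy1, and in Week 3 to 18 from -0.58 to 0.5 for Dpp4, -0.67 to 0.76 for Pi16, -0.31 to 0.7 for Thy1 and -0.27 to 0.27 for Cd55. The late minus early effect of HFC ran from -0.26 to 1.02 for Pdgfra, -1.04 to 0.6 for Pi16 and -0.27 to 0.73 for Thy1. HF5 minus HFC ran from -0.53 to 0.5 for Pdgfra, -0.2 to 0.45 for Pdgfrb, -0.55 to 0.03 for Ly6a, -0.73 to 0.34 for Dpp4, -0.41 to 0.98 for Pi16, -0.05 to 0.39 for Cd34, -0.38 to 0.38 for Thy1 and -0.31 to 0.23 for Cd55. HF20 minus HFC ran from -1.09 to 0.23 for Pdgfra, -0.43 to 0.24 for Pdgfrb, -1.15 to 0.43 for Dpp4, -1.03 to 0.96 for Pi16 and -0.73 to 0.69 for Thy1, and HF75 minus HFC from -1.3 to 0.07 for Pi16. KAL-1 minus HFC ran from -1.03 to 0.08 for Pdgfra, -0.4 to 0.17 for Pdgfrb, -0.91 to 0.56 for Pi16, -0.2 to 0.16 for Cd34 and -0.76 to 0.19 for Thy1. Late minus early ran from -0.13 to 0.35 for Pdgfrb, -0.03 to 0.58 for Dpp4 and -0.02 to 0.98 for Pi16, and the change per week from -0.01 to 0.09 for Pdgfra and Pi16, -0.03 to 0.05 for Pdgfrb and -0.06 to 0.04 for Ly6a.

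Over all genes, HF20 minus HFC called 8113 genes with normexp and 0 otherwise. Late minus early called 1 gene, and 0 with an intensity trend, normexp, all probes, no filter or a filter on every array, 7 with array weights, 44 with independent arrays, 5 without the 4 arrays, 2 without the 6, and 0 to 5 without 1 time point. The change per week called 1 gene, and 20 with independent arrays, 0 with normexp, a filter on every array, all probes, an intensity trend, the Week 12 exchange or without the 4 or the 6 arrays, and 0 to 3 without 1 time point. Of the pairs of members, 20 passed, 19 with quantile normalization, 18 with normexp, 19 without the 4 arrays and 20 without the 6. Of the relations with lists 54 passed (42 also within time points), 56 (45) with quantile normalization, 39 (30) with normexp, 49 (37) without the 4 arrays and 52 (39) without the 6. Pdgfra with Pdgfrb no longer passed with normexp, Pi16 with Cd34 with quantile normalization, normexp or without the 6 arrays, and Ly6a with Cd34 without the 4 arrays, while Pdgfrb with Thy1 passed without the 6 (r of 0.47) and r for Pdgfrb and Pi16 turned to 0.16. Without the 2 arrays farthest from the median, r became 0.03 for Pdgfrb and Pi16 and 0.02 for Pdgfrb and Cd55. Diets were paired by time point. A few titles also carry a replicate code. At Week 3 the code of HFC differs from that of LFC, HF5 and HF20, and the pairing by time point was kept. The fit without the time point as a block called no member either. Probes near background, such as the third of Dpp4, are limited by their signal.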
